A study of Mus musculus with 24 samples.

Results

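UDCA, TCDCA and TCA are bile acids that carry a hydroxyl group on carbon 7 of the steroid nucleus, and they were chosen from the 7 acids of the study by that feature and by sample title. They account for 9 of 24 RNA-seq libraries, 3 for each acid, and each acid was set beside the same 3 control libraries. In vitro activated mouse CD8+ T cells, the killer lymphocytes of the adaptive immune system, were exposed to 1 acid at a time. UDCA is ursodeoxycholic acid, which is unconjugated, was given at 50 µM and has its carbon 7 hydroxyl in the beta orientation. TCDCA is taurochenodeoxycholic acid, a taurine conjugate given at 100 µM with the hydroxyl in the alpha orientation. TCA is taurocholic acid, also a taurine conjugate given at 100 µM with an alpha hydroxyl, and it carries a further hydroxyl group on carbon 12. Exposure was for 24 h by the study's design text, while the treatment protocol says overnight. The controls are labelled only as control, and the labels give no vehicle, strain, genotype, age or donor animal for any group. They also do not say whether the replicates of a group came from separate mice or cultures, so p-values measure the spread between these libraries, which may be technical.

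Bile acids are made from cholesterol in the liver, where they are joined to taurine or glycine and secreted into the gut. Conjugated acids are charged and enter cells mainly through transporters, while unconjugated acids cross membranes more freely. They act as detergents of dietary fat and as signals through the nuclear receptor FXR (gene Nr1h4) and the membrane receptors TGR5 (Gpbar1) and S1pr2. Immune cells in the liver, CD8+ T cells among them, meet them at raised concentrations when bile flow is disturbed.

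The 12 libraries held 28713265 to 37269527.5 counts in genes, of 24537 genes in the table, and 13044 genes were abundant enough to be tested. CD8 T cell markers (8 genes, among them Cd8a, Cd8b1 and Cd3e) summed to 4340 to 4480 CPM (the count of a gene scaled to a common library size) in the controls, 4350 to 4520 with TCA, 4650 to 4880 with UDCA and 4710 to 4900 with TCDCA. Of the 8, 3 rose with UDCA and 2 with TCDCA, beside 9.18% and 5.08% of all tested genes. The CD4 T cell list of 4 genes summed to 48.5 to 52.6 CPM in the controls, 46.5 to 48.7 with UDCA, 41.6 to 44.3 with TCDCA and 45.1 to 48.8 with TCA, most of it Zbtb7b (33 to 43.2) and Foxp3 (7.74 to 9.13), with Cd4 itself at 0.413 to 0.787. The part of these shifts in the results was not tested. Hepatocyte markers summed to at most 0.0314 CPM, and the B cell and myeloid lists to at most 6.38 and 1.06 CPM. Any 2 libraries of a group differed by 3 to 14.9 times the sampling noise of counts (chi-square over its degrees of freedom), so no library was counted as a copy of another. A library stood apart from its group on each of the first 2 principal components. On the first principal component of log2 CPM, which held 27.6% of the variance, the controls lay at -12.1, -18.8 and -14.3. TCDCA lay between 9.2 and 10.2 and UDCA between 10.5 and 14.9, while the TCA libraries lay at -11.8, -11.2 and 0.3. TCA replicate 3 thus sat between its own group and the other acids. On the second component (14%), UDCA replicate 3 lay at -1.7 and the other UDCA libraries at -13.6 and -15.8.

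Each acid was first measured against the control libraries. UDCA changed 2599 genes (1197 rose and 1402 fell, 19.9% of those tested) by edgeR's quasi-likelihood test at a Benjamini-Hochberg adjusted p under 0.05, with 363 of them past 1.5-fold. TCDCA changed 1712 genes (663 rose and 1049 fell, 13.1%), 271 of them past 1.5-fold. TCA changed 57 genes (11 rose and 46 fell, 0.437%), 10 of them past 1.5-fold, and 1130 genes had an unadjusted p under 0.05. Without TCA replicate 3 the TCA count was 6, without control replicate 2 it was 8, without control replicate 3 or TCA replicate 1 it was 14, and without control replicate 1 it was 114. The TCDCA count was 898 without control replicate 2, 1091 without TCDCA replicate 1 and 1105 without TCDCA replicate 2, and the UDCA count was 1692 without control replicate 2 and 2118 without UDCA replicate 3. Median sizes of change over all tested genes, as absolute log2 fold changes, were 0.10 with UDCA, 0.09 with TCDCA and 0.06 with TCA. UDCA was given at 50 µM and the taurine conjugates at 100 µM, so its values stand beside theirs and were not tested against them. Of the 3 pairs of acids only TCDCA and TCA were given at the same dose, and this 1 pair was tested directly. In that test 471 genes differed (3.61%), of which 125 were higher (0.958%) and 346 lower (2.65%) with TCDCA than with TCA. Without TCA replicate 3 that count was 737, and without either of the other TCA libraries, or TCDCA replicate 1 or 2, it was 185 to 246.

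A set of 42 genes changed in the same direction with all 3 acids, 39 falling and 3 rising. They made up 1.62% of the genes UDCA changed, 2.45% of those TCDCA changed and 73.7% of those TCA changed, so the short TCA list set the limit of the overlap. The 3 comparisons share their controls, so the count describes these libraries and no overlap test was made. In each of the 42 genes the 3 libraries of every acid lay wholly outside the range of the control libraries, where 34.8%, 32.8% and 13.8% of all tested genes did so with UDCA, TCDCA and TCA. Passing the test on these libraries chose the 42, so nothing is read from that. At the edge of the TCA threshold, Fzd7 and Selenbp1 were just inside, with adjusted p of 0.0483 and 0.0467, while Nabp1 and Mxi1 were just outside, at 0.0526 and 0.0577. Of the fallers 12 are in the lists of glycolysis and hypoxia response genes, which hold 0.383% of all tested genes, and 4 in the list of genes induced by the T cell receptor, which holds 0.261%, lists that were drawn up with earlier results in view. Selenbp1 and Selenbp2 are near-identical copies whose reads can be shared, and 1 faller is a predicted gene model. Cd81, Hilpda, Irf4 and Tg stayed in the shared set under every one of the 19 alternative settings, and those 4 were the whole set without TCA replicate 3. The shared count was 6 without control replicate 2 and 27 without TCDCA replicate 3, all among the 42. Without control replicate 3 it was 13, of which 12 were among the 42. Without TCA replicate 1 it was 11, of which 9 were among the 42. Leaving out control replicate 1 gave 97, with all 42 among them. The direction of all 42 genes with TCA was the same whichever control or TCA library was left out, and their median absolute log2 fold change ran from 0.30 to 0.40.

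**Figure D1:**
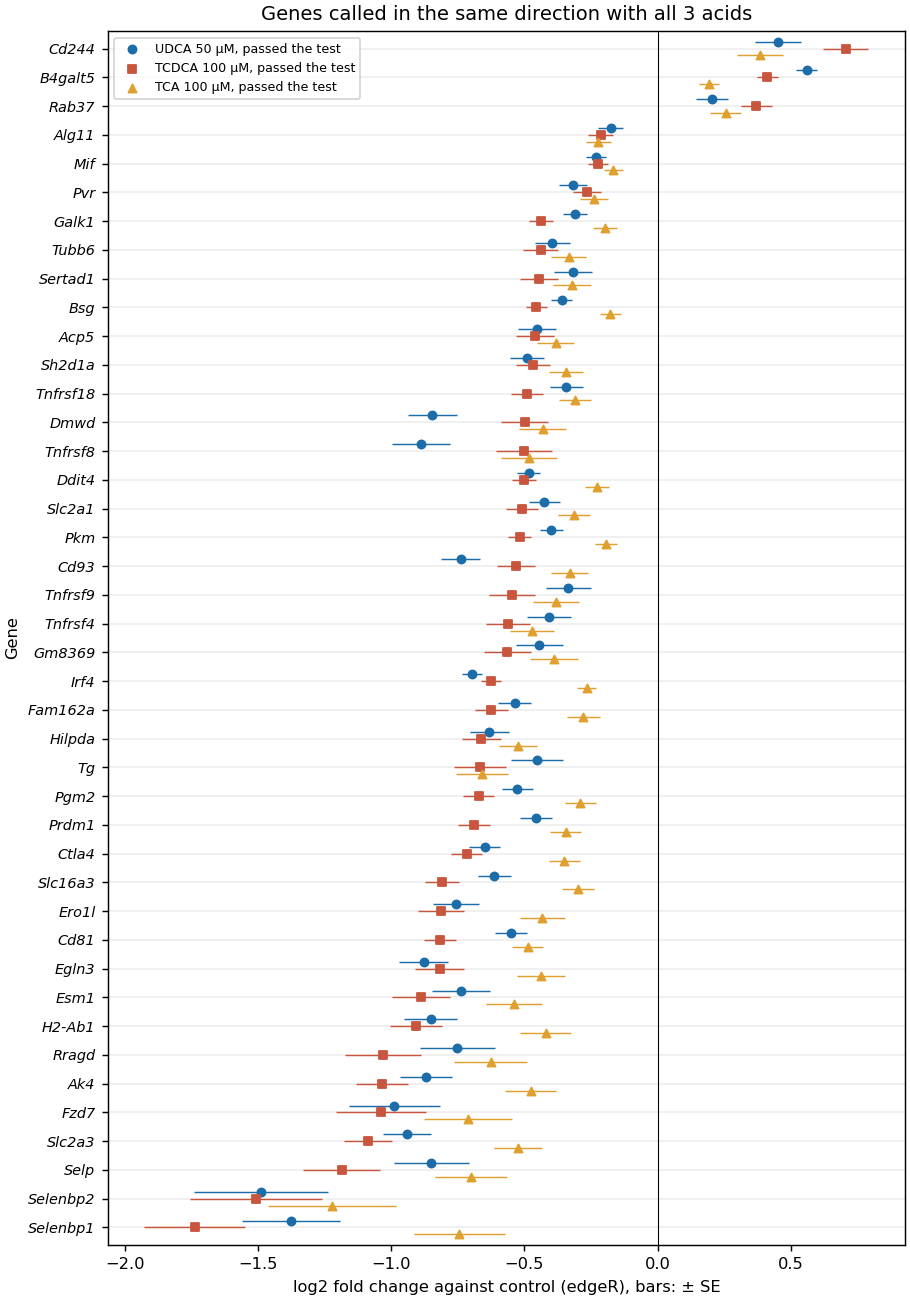
The horizontal axis is the log2 fold change against control from edgeR with its standard error, and each row is 1 of the 42 genes changed in the same direction by UDCA (circles, 50 µM), TCDCA (squares, 100 µM) and TCA (triangles, 100 µM). The TCA triangle lies nearest to 0 in 36 rows, and 39 genes lie to the left of 0.

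The sizes of change can be put in order within the shared set, but the order mixes doses, with UDCA at 50 µM and the conjugates at 100 µM, and is no ranking of UDCA against them. TCDCA gave the largest fold change, UDCA the next and TCA the smallest in 27 genes. UDCA came before TCDCA and TCA in 9 genes, TCDCA before TCA and UDCA in 5, and TCA came first in 1, Alg11, an endoplasmic reticulum mannosyltransferase singled out after its values were seen. The median absolute log2 fold change of the 42 was 0.53 with UDCA, 0.59 with TCDCA and 0.37 with TCA. Between the taurine conjugates the change was larger with TCDCA in 41 of 42 genes, and 19 differed by the direct test, all towards a larger TCDCA change. The same libraries chose these genes, so the 19 are a description beside the 3.61% of all genes. The other 23 genes did not pass, which does not show that the conjugates act alike on them.

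The upstream regions of 5 of these genes are printed here to show fallers with and without the letters ACGTG. The letters were searched on both strands over the 250 bases before the annotated start in the RefSeq GRCm38.p6 table. They are a form of the core of the element bound by hypoxia-inducible factors. Other forms of that core were not searched, so "no match" below means only that ACGTG was not found. Of the 39 fallers 28 had an entry, and 12 of those (42.9%) held the letters, beside 22.2% of the 9896 tested genes with an entry. Among the 12 shared genes of the glycolysis and hypoxia lists, 10 had an entry and 7 held the letters. Those 7 are among the 12 fallers with the letters, and the lists were drawn up with earlier results in view. The 42.9% is thus not read as a trait of the fallers outside these lists. Each match is a description of the sequence and not of binding. Shown are the first 3 genes of the ranking by size that hold the letters, and the first 2 that do not. Capitals mark ACGTG read on either strand, and in Tnfrsf8 the matches of both strands overlap as CACGTG.
Hilpda, chr6:29272376-29272625, plus strand: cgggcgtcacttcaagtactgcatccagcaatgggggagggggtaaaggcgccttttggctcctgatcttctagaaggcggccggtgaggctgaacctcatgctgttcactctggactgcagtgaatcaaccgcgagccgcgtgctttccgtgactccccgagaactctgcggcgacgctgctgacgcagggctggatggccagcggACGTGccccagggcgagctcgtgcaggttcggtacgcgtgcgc
Tnfrsf8, chr4:145315165-145315414, minus strand: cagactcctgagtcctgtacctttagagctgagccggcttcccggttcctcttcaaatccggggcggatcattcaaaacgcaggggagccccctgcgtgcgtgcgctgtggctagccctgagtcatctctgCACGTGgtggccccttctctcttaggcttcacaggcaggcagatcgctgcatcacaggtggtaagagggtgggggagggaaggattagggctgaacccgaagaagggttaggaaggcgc
Egln3, chr12:54203875-54204124, minus strand: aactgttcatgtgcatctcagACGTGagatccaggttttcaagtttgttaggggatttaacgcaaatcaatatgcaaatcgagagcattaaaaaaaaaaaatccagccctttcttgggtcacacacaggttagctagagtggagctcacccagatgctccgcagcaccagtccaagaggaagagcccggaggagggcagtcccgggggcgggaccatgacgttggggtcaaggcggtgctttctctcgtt
Cd81, chr7:143052500-143052749, plus strand, no match: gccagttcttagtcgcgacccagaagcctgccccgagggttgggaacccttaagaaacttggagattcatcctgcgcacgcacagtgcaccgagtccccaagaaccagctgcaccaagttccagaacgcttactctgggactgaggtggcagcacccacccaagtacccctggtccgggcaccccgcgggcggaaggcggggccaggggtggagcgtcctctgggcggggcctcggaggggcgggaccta
Ak4, chr4:101419039-101419288, plus strand, no match: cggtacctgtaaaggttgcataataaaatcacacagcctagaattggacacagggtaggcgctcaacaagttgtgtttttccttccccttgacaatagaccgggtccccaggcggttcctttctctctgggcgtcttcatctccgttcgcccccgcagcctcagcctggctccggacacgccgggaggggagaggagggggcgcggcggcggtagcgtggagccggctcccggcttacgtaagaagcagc
All 5 are read 5′ to 3′ on the strand of the gene and end at the base before its annotated start. The start of Tnfrsf8 lies 17 bases from that of the transcript used in the deposited table, and the starts of the other 4 coincide.

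Hilpda, a lipid droplet protein induced by low oxygen, fell with each acid. Its level was 18.5, 22.6 and 20.6 CPM in the controls, 12.8, 13.1 and 13.9 with UDCA, 12.7, 12.7 and 13.6 with TCDCA and 14.5, 13.9 and 14.5 with TCA. Every treated library was below every control library. The log2 fold change was -0.63 ± 0.07 with UDCA, -0.66 ± 0.07 with TCDCA and -0.52 ± 0.07 with TCA (adjusted p 7.47e-07, 5.86e-07 and 0.000463). TCDCA minus TCA was -0.14 with a 95% interval of -0.29 to 0.02.

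Slc2a3, the high-affinity glucose transporter GLUT3, had the largest minimum change among the shared genes of at least 10 CPM. It stood at 312, 389.6 and 324 CPM in the controls, 183, 166 and 184 with UDCA, 158, 157 and 168 with TCDCA and 236, 284 and 193 with TCA. The TCA libraries covered the gap between the controls and the other acids without touching either group, and replicate 3 was the lowest of them. Log2 fold changes were -0.94 ± 0.09 with UDCA, -1.09 ± 0.09 with TCDCA and -0.52 ± 0.09 with TCA, and TCDCA was -0.56 ± 0.09 relative to TCA (adjusted p 0.00045). Ak4, a mitochondrial adenylate kinase raised by low oxygen, showed the same steps at -0.87 with UDCA, -1.04 with TCDCA and -0.48 with TCA, with -0.56 ± 0.10 between TCDCA and TCA (adjusted p 0.00166). Egln3, the oxygen sensor PHD3, fell, with log2 fold changes of -0.88 with UDCA, -0.82 with TCDCA and -0.44 with TCA and differed by -0.38 between TCDCA and TCA (adjusted p 0.0175). Ero1l, an oxidase of disulfide bond formation, had log2 fold changes of -0.76 with UDCA, -0.81 with TCDCA and -0.43 with TCA and a TCDCA to TCA difference of -0.38 (adjusted p 0.0111).

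Cd81, a tetraspanin of the cell surface, stood at 43.6, 47.9 and 45.7 CPM in the controls, 31.3, 30.3 and 32.2 with UDCA, 24.9, 26.3 and 26.6 with TCDCA and 33.3, 31.7 and 32.8 with TCA. No library of any acid reached the control range, and no TCDCA library reached the TCA range. The log2 fold changes were -0.55 ± 0.06 with UDCA, -0.82 ± 0.06 with TCDCA and -0.49 ± 0.06 with TCA, and TCDCA against TCA was -0.33 ± 0.06 (adjusted p 0.00206). Tnfrsf8, the activation receptor CD30, fell, with log2 fold changes of -0.89 with UDCA, -0.50 with TCDCA and -0.48 with TCA, and its 95% interval between TCDCA and TCA ran from -0.24 to 0.20. Tg, the gene of thyroglobulin, the hormone precursor of the thyroid, had -0.45 with UDCA, -0.67 with TCDCA and -0.66 with TCA and an interval from -0.22 to 0.21. Dmwd, a WD repeat protein, had -0.85 with UDCA, -0.50 with TCDCA and -0.43 with TCA and an interval from -0.26 to 0.12. For these last 3 genes the intervals span 0, and differences between the conjugates within those intervals remain possible. H2-Ab1, an MHC class II chain more typical of antigen-presenting cells, fell, with log2 fold changes of -0.85 with UDCA, -0.91 with TCDCA and -0.42 with TCA. Its TCA libraries were at 25.2, 27.4 and 18 CPM against 30.4, 34.9 and 29.4 in the controls, and without replicate 3 the TCA value was -0.26 and did not pass (adjusted p 0.297). The summed B cell markers lay between 5.04 and 6.38 CPM in all 12 libraries.

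Of the 3 genes that rose, Cd244, the receptor 2B4 of natural killer cells and CD8 T cells, stood at 7.65, 6.57 and 7.26 CPM in the controls, 9.47, 8.96 and 11.1 with UDCA, 11.5, 11.8 and 11.8 with TCDCA and 9.05, 9.29 and 9.72 with TCA. Its log2 fold change was 0.45 ± 0.09 with UDCA, 0.71 ± 0.08 with TCDCA and 0.39 ± 0.09 with TCA, and TCDCA exceeded TCA by 0.32 (adjusted p 0.0256). B4galt5, a galactosyltransferase of glycolipid synthesis, was at 112, 109 and 109 CPM in the controls and 125, 122 and 129.7 CPM with TCA, the acid with the smallest rise. Across the acids it rose by 0.56 with UDCA, 0.41 with TCDCA and 0.19 with TCA, with TCDCA above TCA by 0.22 ± 0.04 (adjusted p 0.00127). Rab37, a small GTPase of vesicle release, rose by 0.20 with UDCA, 0.37 with TCDCA and 0.26 with TCA. When the 6 libraries of the TCA comparison were left out in turn, the TCA calls of Cd244 and Rab37 were each lost 5 times. That of B4galt5 was lost 4 times.

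**Figure D2:**
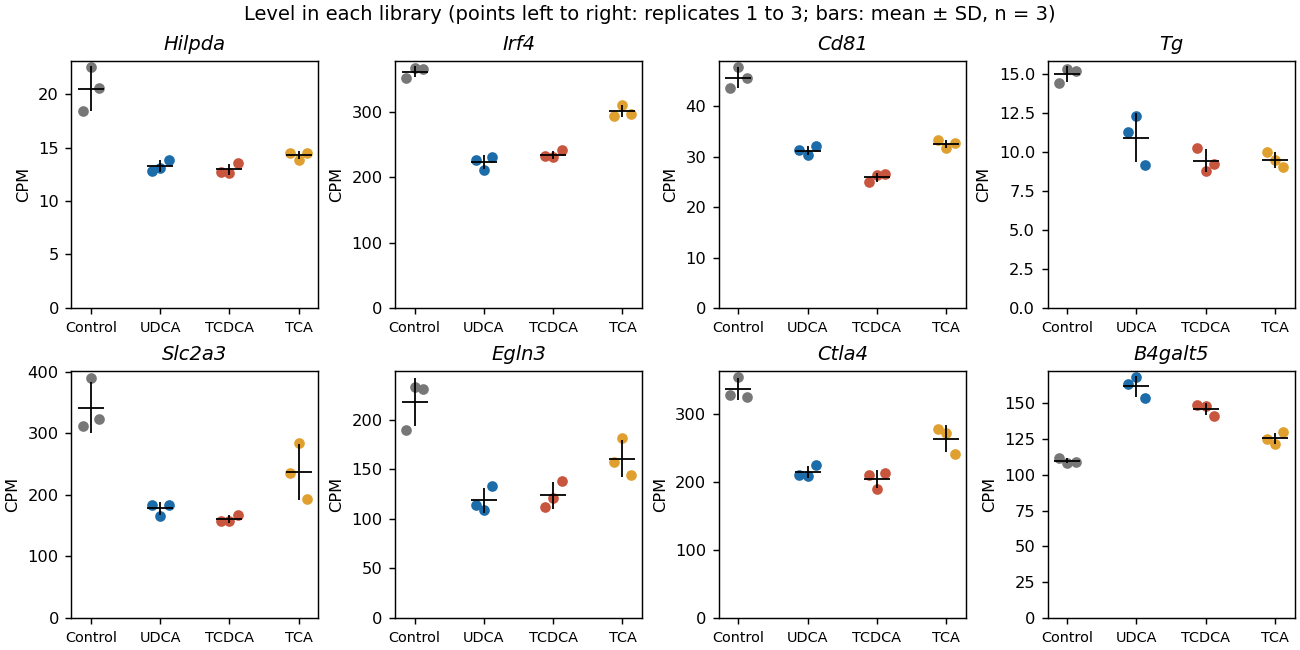
Each panel is 1 gene of the shared set, the vertical axis is its level in CPM starting at 0, points are the 3 libraries of a group in replicate order, and bars are the mean and SD (n = 3). Hilpda and Tg reach similar levels with TCDCA and TCA, while Slc2a3, Egln3 and Ctla4 have their lowest TCA library in replicate 3.

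Glycolysis and the response to low oxygen fell as a group with UDCA and TCDCA and in part with TCA. Of 22 glycolysis genes tested, 20 fell with UDCA (median log2 fold change -0.37), 19 with TCDCA (-0.45) and 4 with TCA (-0.17), and none rose. The 4 are Slc2a1, Slc2a3, Pkm and Slc16a3, which encode a pair of glucose transporters, pyruvate kinase and the lactate exporter MCT4. Of 28 further hypoxia response genes, 24 fell with UDCA (-0.48), 24 with TCDCA (-0.54) and 8 with TCA (-0.22), again with no rise. Over all tested genes the medians lay between 0.0024 and 0.0091, and 10.7%, 8.04% and 0.353% of genes fell with UDCA, TCDCA and TCA. In the direct test, 15 of the glycolysis genes and 17 of the hypoxia genes were lower with TCDCA than with TCA, beside 2.65% of all genes. Without TCA replicate 3, TCA had 0 glycolysis and 1 hypoxia gene, the counts between TCDCA and TCA were 16 and 20, and without control replicate 1 TCA had 13 and 13. Over all libraries left out the TCA counts ran from 0 to 13 and from 1 to 14, at their lowest also without control replicate 2. Leaving out TCA replicate 2 lowered the 17 hypoxia genes to 11.

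Several genes of these lists that did not pass with TCA differed between TCDCA and TCA. Aldoc, the aldolase isoform C, was at 42.5, 51.8 and 41.3 CPM in the controls, 16.8, 13.6 and 18.2 with UDCA, 21.6, 18.9 and 23.4 with TCDCA and 44.6, 45.3 and 31 with TCA. The first 2 TCA libraries lay within the control range and the third lay below it. It fell with UDCA (-1.49 ± 0.12) and TCDCA (-1.09 ± 0.11), had -0.16 ± 0.11 with TCA (adjusted p 0.719), and was -0.92 ± 0.11 with TCDCA relative to TCA (adjusted p 4.14e-05). P4ha2, a collagen prolyl hydroxylase, stood at 16.3, 23.4 and 17 CPM in the controls, 7.38, 5.36 and 7.03 with UDCA, 4.93, 4.41 and 5.22 with TCDCA and 13.1, 17.8 and 7.72 with TCA. Here the TCA libraries ran from within the control range to close to the UDCA libraries, and TCDCA was -1.41 ± 0.20 relative to TCA (adjusted p 0.000131). Pygl, which breaks down glycogen, and Ndrg1, a hypoxia-induced stress gene, were -1.13 and -0.73 with TCDCA relative to TCA. Nrn1, the neuronal growth factor neuritin, followed at -0.83. Pgk1, which makes ATP in glycolysis, fell with UDCA (-0.59) and TCDCA (-0.60), and had -0.22 with TCA (adjusted p 0.0647). The lactate dehydrogenase gene Ldha had -0.38 with UDCA, -0.45 with TCDCA and -0.19 with TCA, the last of them at an adjusted p of 0.174. As these are bulk samples, fewer cells with a transcript and less of it per cell cannot be told apart.

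Genes that T cell receptor signalling induces fell more often than they rose. Of 34 tested, 17 fell and 5 rose with UDCA (median -0.14), 11 fell and 1 rose with TCDCA (-0.17), and 4 fell with TCA (-0.13), beside 10.7%, 8.04% and 0.353% of all genes that fell and 9.18%, 5.08% and 0.0843% that rose. The 4 TCA falls were 1 without control replicate 2, TCA replicate 1 or TCA replicate 3 and 2 without control replicate 3, and the 5 UDCA rises were 2 or 3 without control replicate 2 or 3 or UDCA replicate 1 or 2. Irf4, a transcription factor scaled to the strength of receptor signalling, stood at 352, 368 and 365 CPM in the controls, 227, 211 and 231 with UDCA, 232, 230.3 and 242 with TCDCA and 294, 311 and 297 with TCA. The libraries within each group lay close together, and TCA lay between the controls and the other acids with no overlap. Log2 fold changes were -0.70 ± 0.04 with UDCA, -0.62 ± 0.04 with TCDCA and -0.27 ± 0.04 with TCA, and TCDCA against TCA was -0.36 ± 0.04 (adjusted p 8.71e-06). The costimulatory receptors Tnfrsf4 (OX40), Tnfrsf9 (4-1BB) and Tnfrsf18 (GITR) also fell with each acid, and were chosen here after their values were seen as the other genes of this list in the shared set. The log2 fold change of Tnfrsf4 was -0.41 with UDCA, -0.56 with TCDCA and -0.47 with TCA, that of Tnfrsf9 -0.34 with UDCA, -0.55 with TCDCA and -0.38 with TCA, and that of Tnfrsf18 -0.34 with UDCA, -0.49 with TCDCA and -0.31 with TCA. None of the 3 passed the direct test between TCDCA and TCA, and for Tnfrsf9 the 95% interval ran from -0.34 to 0.01. Ctla4, an inhibitory receptor, had -0.65 with UDCA, -0.72 with TCDCA and -0.35 with TCA, and Prdm1, the effector transcription factor Blimp-1, had -0.46 with UDCA, -0.69 with TCDCA and -0.35 with TCA. Both were lower with TCDCA than with TCA, at -0.37 (adjusted p 0.00045) and -0.34 (adjusted p 0.00141).

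With UDCA some early response genes moved the opposite way to Irf4. Egr3, which restrains T cell activation, rose from 8.77 ± 0.776 to 15 ± 1.16 CPM (SD, n = 3), by 0.77 ± 0.09, but fell by 0.36 with TCDCA and had -0.28 with TCA (adjusted p 0.35). Nr4a3 rose by 0.54 with UDCA, and TCDCA exceeded TCA by 0.36 (adjusted p 0.00649). Myc, which drives growth after activation, fell by 0.46 with UDCA, and had -0.10 with TCDCA and -0.09 with TCA (adjusted p 0.365 and 0.768). Egr3 and Nr4a3 were chosen after their values were seen, while Myc was named by rule from the list of Myc and ribosome biogenesis genes. None of the 30 S phase genes tested passed with any of the 3 acids, and medians lay between -0.02 and -0.01.

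Cholesterol genes fell with UDCA, and few of them passed with the taurine conjugates. Of 26 genes of cholesterol synthesis and uptake, 22 fell with UDCA and none rose (median -0.39). With TCDCA 4 rose and 1 fell (0.04), and with TCA 2 rose and none fell (0.13). Over all genes 10.7%, 8.04% and 0.353% fell with UDCA, TCDCA and TCA, and 9.18%, 5.08% and 0.0843% rose. Hmgcs1, which makes the HMG-CoA of the sterol pathway, stood at 415, 452 and 430.4 CPM in the controls, 269.7, 255 and 273 with UDCA, 465, 487 and 499 with TCDCA and 543, 574 and 464 with TCA. The UDCA libraries were all below the controls, and the TCDCA and TCA libraries all above them. Its log2 fold change was -0.70 ± 0.06 with UDCA, 0.16 ± 0.06 with TCDCA and 0.29 ± 0.06 with TCA, with adjusted p of 1.6e-08, 0.0659 and 0.0204. Idi1, the next isoprenoid step to pass with TCA, had -0.38 with UDCA, 0.22 with TCDCA and 0.27 with TCA, and passed with each acid. Insig1, which retains the sterol sensor in the endoplasmic reticulum, fell by 0.68 ± 0.07 with UDCA. Between TCDCA and TCA 1 of the 26 genes differed, Pmvk at -0.20. For Hmgcs1 the 95% interval of that difference, not adjusted for the number of genes, was -0.24 to -0.0049, and the edgeR test did not pass (adjusted p 0.27). The 4 rises with TCDCA were between 1 and 3 when a library was left out, fewest without control replicate 1. The 2 rises with TCA were 0 whichever other library was left out and 1, Hmgcs1, without TCA replicate 3. Between TCDCA and TCA the 1 gene was 6, all lower with TCDCA, without TCA replicate 3, and 0 without TCDCA replicate 1 or 2 or TCA replicate 1 or 2. Rises of Idi1 with TCA (adjusted p 0.0483) and of Hmgcs1 lay close to the threshold.

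**Figure D3:**
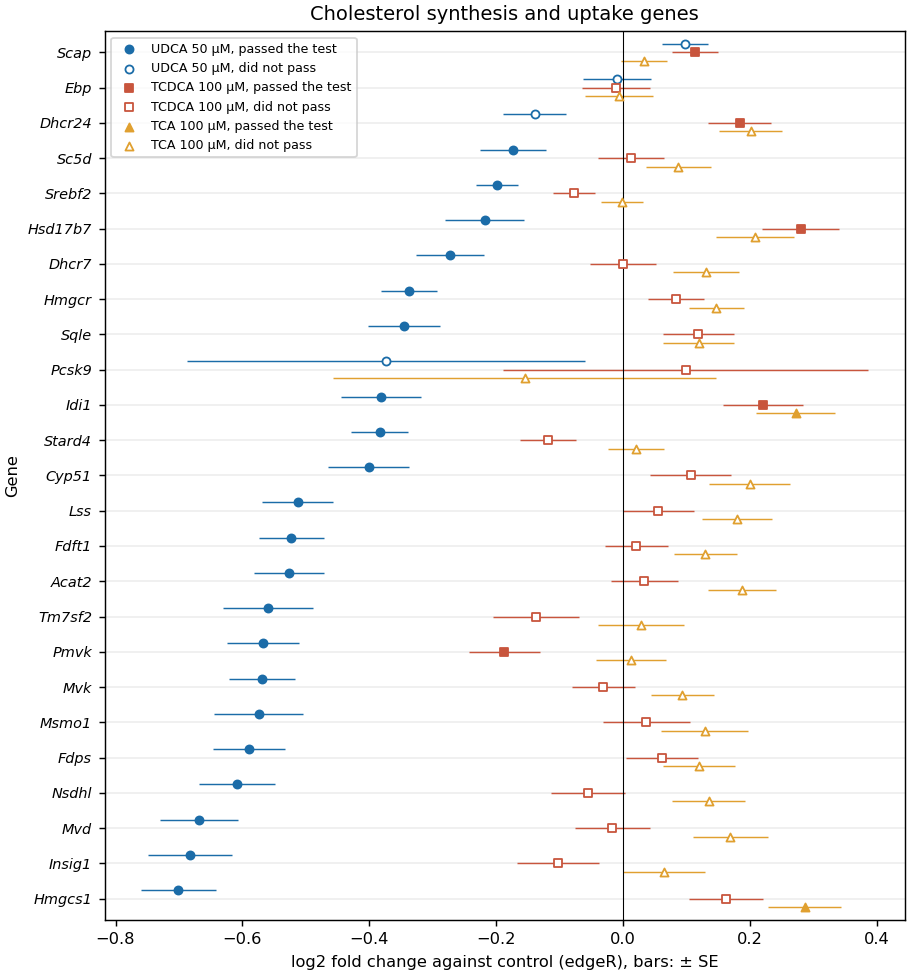
The horizontal axis is the log2 fold change against control with its standard error for tested cholesterol genes, a row for each, filled symbols passed the test and open symbols did not. Every UDCA circle that passed lies left of 0, while the TCDCA squares and TCA triangles gather around 0 or to its right.

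Genes of sterol export changed in few cases. Of 11 liver X receptor targets tested 3 rose with UDCA, Abcg1, Abca1 and Mylip, while 2 fell with TCDCA, Abcg1 and Smpdl3a, and none passed with TCA. Over all genes 9.18% rose with UDCA and 8.04% fell with TCDCA. Abcg1, a cholesterol exporter, rose by 0.22 ± 0.08 with UDCA (adjusted p 0.0484), fell by 0.43 ± 0.08 with TCDCA (adjusted p 0.000845) and had -0.17 ± 0.08 with TCA (adjusted p 0.585). The UDCA count of 3 was 1 or 2 whenever a library was left out. Pmvk and Idi1 above were picked after their values were seen, to complete a short count. Cpt1a, the entry step of fatty acids into mitochondria, likewise rose by 0.30 with UDCA and fell by 0.21 with TCDCA, and had -0.05 with TCA.

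Chaperones rose with UDCA. In the endoplasmic reticulum list 13 of 22 genes rose and 1 fell with UDCA (median 0.15), against 0 and 3 with TCDCA (-0.03) and 0 and 0 with TCA (-0.01). In the heat shock list 9 of 16 rose with UDCA (0.18), 4 rose and 1 fell with TCDCA (0.08), and none passed with TCA (0.03). Over all genes, 9.18% rose with UDCA, 5.08% with TCDCA and 0.0843% with TCA. Calr, the calcium-binding chaperone calreticulin, was at 1018, 992 and 1067 CPM in the controls, 1346, 1411 and 1317 with UDCA, 1054, 1092 and 1049 with TCDCA and 1048, 1004 and 1036 with TCA. All UDCA libraries were above the other 9. It rose by 0.40 ± 0.04 with UDCA, and Hspa5 (BiP), the main chaperone of the compartment, by 0.32 ± 0.05. TCDCA and TCA gave 0.05 and 0.01 for Calr (adjusted p 0.467 and 0.986). Hsph1, a cytosolic co-chaperone, rose by 0.31 with UDCA. The 4 heat shock rises with TCDCA were 1 without control replicate 1 or 2 or TCDCA replicate 2, and the 3 falls in the endoplasmic reticulum list were 0 without control replicate 2 or TCDCA replicate 1. Targets of the integrated stress response did not rise beside these chaperones. Of 32 tested, 15 fell and 1 rose with UDCA (-0.15), among them Atf4 at -0.34 and the pseudokinase Trib3 at -0.67, while 4 fell and 2 rose with TCDCA and 1, Ddit4, fell with TCA. Over all genes 10.7%, 8.04% and 0.353% fell with UDCA, TCDCA and TCA. Atf4 was chosen after its values were seen.

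**Figure D4:**
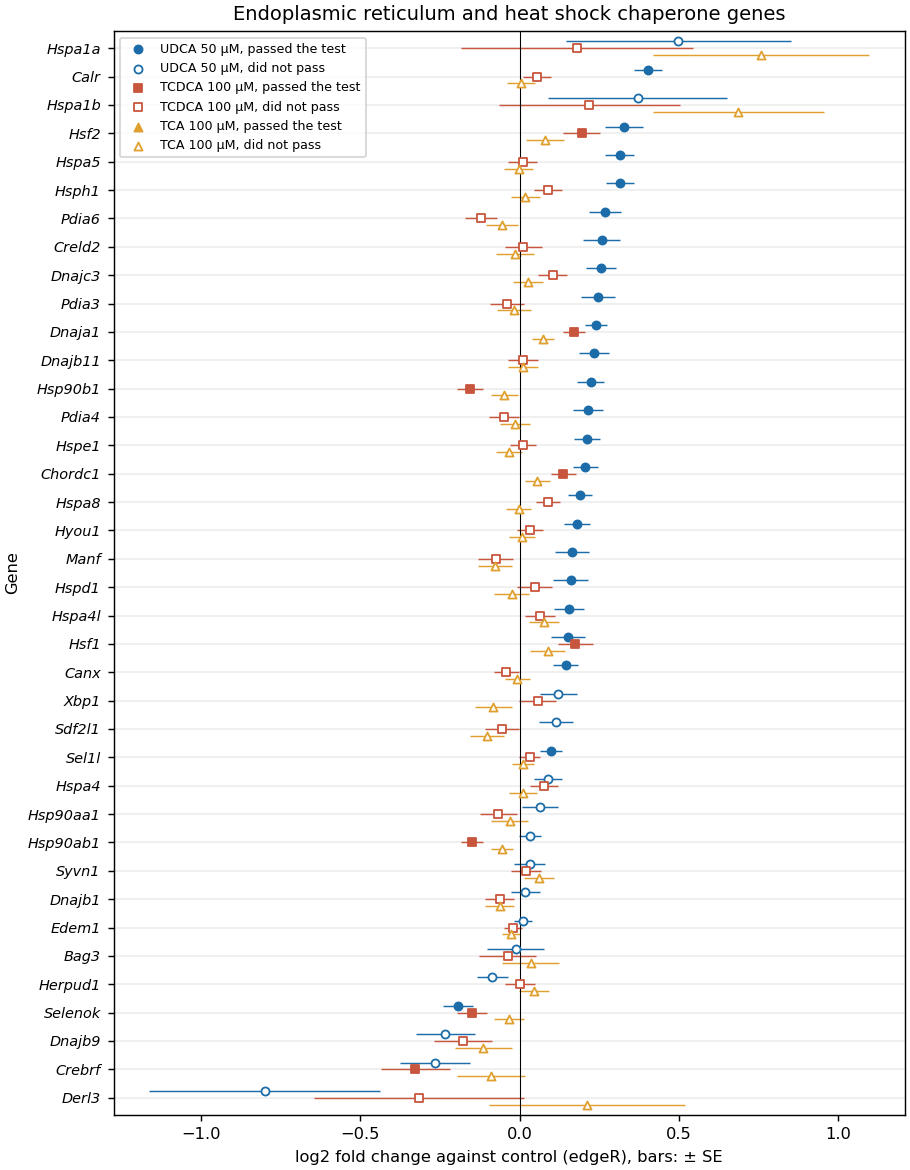
The horizontal axis is the log2 fold change against control with its standard error for the 22 endoplasmic reticulum and 16 heat shock genes tested, filled symbols passed the test and open symbols did not. UDCA circles from Calr to Sel1l sit to the right of 0 while most squares and triangles straddle it.

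Type I interferon response genes fell with UDCA and TCDCA and did not pass with TCA. Of 33 tested, 13 fell and 1 rose with UDCA (median -0.17), 13 fell and 1 rose with TCDCA (-0.19), and none passed with TCA (0.07). Over all genes 10.7% fell and 9.18% rose with UDCA, and 8.04% fell and 5.08% rose with TCDCA. The direct test gave 14 genes lower with TCDCA than with TCA and none higher (-0.28), beside 2.65% of all genes. Ifit1, an inhibitor of viral translation, stood at 8.49, 12.4 and 8.98 CPM in the controls, 4.41, 4.21 and 3.46 with UDCA, 3.06, 3.28 and 3.81 with TCDCA and 10.1, 11.4 and 6.42 with TCA. TCDCA and UDCA libraries were all below every control and TCA library. It fell with UDCA (-1.30 ± 0.18) and TCDCA (-1.55 ± 0.18), and had -0.10 ± 0.16 with TCA (adjusted p 0.904), a difference of -1.46 ± 0.18 between the conjugates (adjusted p 4.14e-05). The chemokine Cxcl10 was at 2.2, 3.75 and 1.99 CPM in the controls, 0.831, 0.95 and 1.09 with TCDCA and 2.92, 3.3 and 2.32 with TCA, and TCDCA was -1.57 ± 0.22 relative to TCA (adjusted p 0.000131). Isg15, a ubiquitin-like modifier, was -0.88 ± 0.16 with TCDCA relative to TCA (adjusted p 0.00193). Several of these genes are of low abundance, and when only genes of at least 10 CPM were kept the 14 became 8. Without TCA replicate 2 it was 9, and without control replicate 2 the 13 falls with UDCA were 8.

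**Figure D5:**
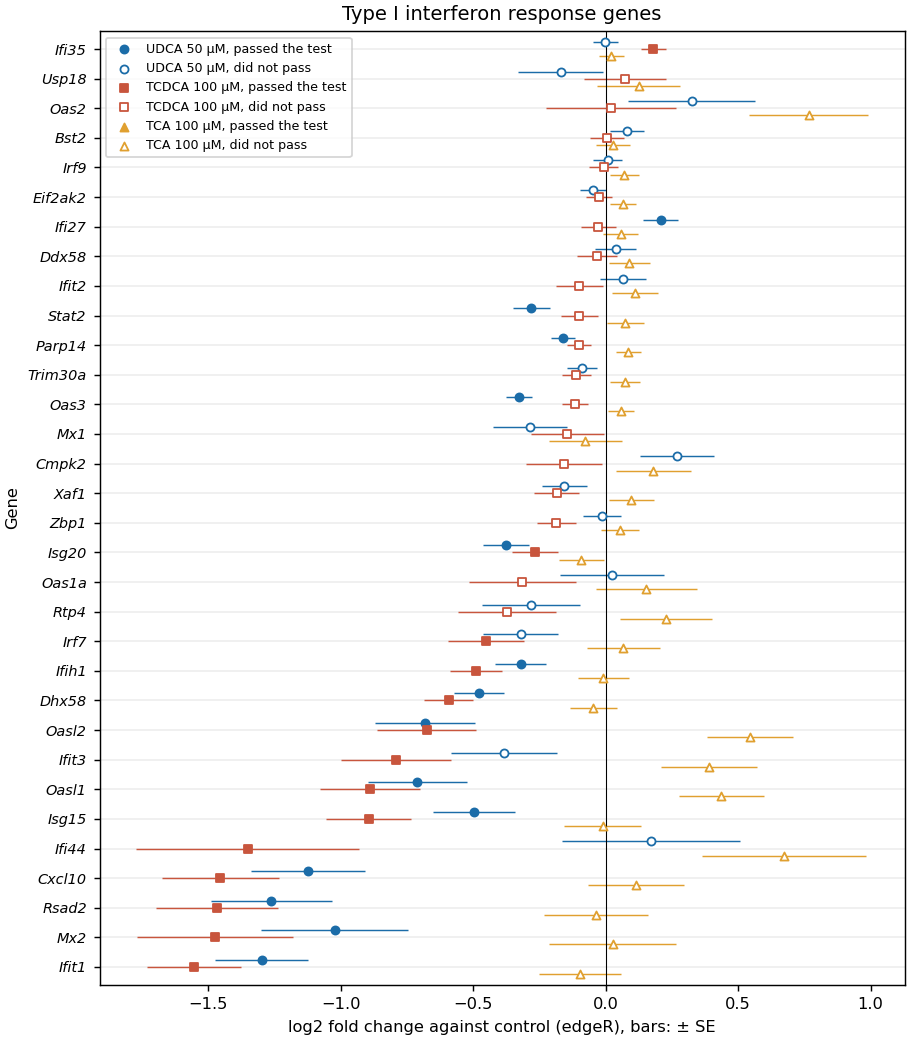
The horizontal axis is the log2 fold change against control with its standard error for tested type I interferon response genes, filled symbols passed the test and open symbols did not. At the bottom, Ifit1 and Cxcl10 have UDCA and TCDCA symbols below -1 and TCA symbols near 0.

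Killing and cytokine genes moved in both directions. Of 22 cytotoxic effector genes 6 rose and 6 fell with UDCA, 6 rose and 3 fell with TCDCA and none passed with TCA, beside 9.18% of all genes that rose and 10.7% that fell with UDCA and 5.08% and 8.04% with TCDCA. The 6 falls with UDCA were 3 without control replicate 2 or 3 or UDCA replicate 2. Gzma, a granzyme, stood at 17.9, 15.6 and 18.8 CPM in the controls, 22.8, 26.9 and 23.4 with UDCA, 29.1, 30.2 and 24 with TCDCA and 20.7, 17.7 and 19 with TCA. UDCA and TCDCA libraries were all above the controls, and TCDCA was 0.54 ± 0.10 higher than TCA (adjusted p 0.0013). Prf1, the pore-forming perforin, fell with UDCA (-0.55) and TCDCA (-0.60), and had -0.43 with TCA (adjusted p 0.0687). Gzmb fell by 0.24 with UDCA (adjusted p 0.049) and had 0.08 and -0.07 with the conjugates. Ifng rose by 0.77 ± 0.16 with UDCA, from 3.56, 5.48 and 4.25 to 6.96, 8.17 and 7.45 CPM, and had 0.04 with TCDCA and -0.10 with TCA (adjusted p 0.922 and 0.918). Tnf rose by 0.31 with UDCA and 0.52 with TCDCA, and TCDCA exceeded TCA by 0.35 ± 0.07 (adjusted p 0.00262). Fasl, the ligand that triggers death of target cells, exceeded its TCA level with TCDCA by 0.35 ± 0.05 (adjusted p 0.000234). Tnfsf11 (RANKL), Ifngr2, Tnfrsf21 and Vash1 were also higher with TCDCA than with TCA, by 0.44, 0.43, 0.40 and 0.37. The NK cell marker list, of which Eomes is also a gene of memory CD8 T cells, summed to 26.3 to 27.6 CPM in the controls, 31.2 to 36.5 with UDCA, 32.5 to 34.5 with TCDCA and 25.7 to 29.4 with TCA. The defining NK genes Ncr1 and Klrb1c were at most 0.315 and 0.589 CPM. The part of other cells in these changes was not tested.

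Genes of naive and memory T cells fell mainly with UDCA and TCDCA. Of 23 tested, 7 fell with UDCA, 8 fell and 1 rose with TCDCA, and 1 rose with TCA, beside 10.7% and 8.04% of all genes that fell with UDCA and TCDCA and 0.0843% that rose with TCA. The falls were 4 without control replicate 2 or UDCA replicate 3 with UDCA and 5 with TCDCA without control replicate 1 or 2 or TCDCA replicate 2 or 3. The rise with TCA was 0 without control replicate 2 or 3 or TCA replicate 1 or 3. Il7r, the receptor for the survival cytokine IL-7, stood at 123, 130.3 and 119.5 CPM in the controls, 83.1, 84.2 and 93.1 with UDCA, 90.7, 85.1 and 92.7 with TCDCA and 111, 117 and 109 with TCA. The TCA libraries were all below the controls by a small margin, with a log2 fold change of -0.14 that did not pass (adjusted p 0.371). It fell with UDCA (-0.52) and TCDCA (-0.47), and was -0.33 ± 0.05 with TCDCA relative to TCA (adjusted p 0.000494).

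Genes private to 1 acid were defined as those that passed with it and had an unadjusted p of 0.05 or more with each of the others. UDCA had 979 (542 rose and 437 fell), 37.7% of the genes it changed, and 93 of them were past 1.5-fold. TCDCA had 334 (147 rose and 187 fell), 19.5% of its genes, and 45 were past 1.5-fold. Leaving out control replicate 2 or 3 or any of the TCDCA libraries gave 146 to 222 for TCDCA, and leaving out UDCA replicate 2 gave 594 for UDCA. TCA had 0 by edgeR, where 1130 genes had an unadjusted p under 0.05, also 0 by DESeq2, and 0 to 2 under all alternatives. Missing a threshold with 1 acid does not show a difference between acids. For UDCA that difference was not tested because the doses differ, and of the 334 genes private to TCDCA, 51 differed from TCA by the direct test and 283 did not.

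Among the genes private to UDCA, Hemk1, a methyltransferase, showed the largest fall of those at 10 CPM or more whose libraries did not overlap the controls. It stood at 94.8, 99.5 and 102 CPM in the controls, 54.9, 50.8 and 67.6 with UDCA, 89.7, 90.9 and 93.3 with TCDCA and 83.5, 96.9 and 101 with TCA, a change of -0.78 ± 0.09 with UDCA (adjusted p 4.21e-07). The UDCA libraries lay below all the others. Insig1 and Trib3 followed, as given above, then Lrrc32 (GARP, a surface carrier of latent TGF-beta) at -0.67 ± 0.13, the interferon-induced GTPase Gbp11 at -0.61 ± 0.13 and Mycn at -0.59 ± 0.16. Galnt3, which starts O-glycan chains, rose with little spread, from 42.3, 44.2 and 42.6 CPM in the controls to 56.7, 59 and 57.6 with UDCA, beside 45.3, 44 and 43.1 with TCDCA and 43.7, 43.3 and 43.3 with TCA. No UDCA library came near the other 9, and the change was 0.42 ± 0.04 (adjusted p 3.04e-08). Zfpm1, the GATA cofactor FOG1, rose by 0.46 ± 0.06, and Il18r1, a chain of the IL-18 receptor, by 0.41 ± 0.09. Ddn, Chst2 (a sulfotransferase) and Ptpn5 (a tyrosine phosphatase) rose by 0.52, 0.49 and 0.41.

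Among the genes private to TCDCA, the falls included integrin and trafficking genes. Itgb3, an integrin chain, stood at 24.6, 27.5 and 23.5 CPM in the controls, 26.4, 27.7 and 20.4 with UDCA, 17.7, 15.2 and 14.5 with TCDCA and 23.9, 23.1 and 17.5 with TCA. It fell by 0.67 ± 0.13 with TCDCA, and the difference from TCA was -0.44 ± 0.13 (adjusted p 0.0559), where the third TCA library came within the TCDCA range. S1pr1, the receptor by which T cells leave lymph nodes, and Klf2, the transcription factor that maintains it, fell with TCDCA (-0.59 ± 0.16 and -0.50 ± 0.15). S1pr1 was at 27.9, 25.1 and 23.5 CPM with TCDCA and 42.1, 39.7 and 33.7 in the controls. Against TCA these were -0.51 ± 0.16 (adjusted p 0.0858) and -0.41 ± 0.15 (adjusted p 0.15), which did not pass. Tmem71, a membrane protein, and Ifi209, an interferon-induced DNA sensor family gene, fell with TCDCA (-0.59 and -0.52) and were also lower than with TCA, at -0.57 (adjusted p 0.02) and -0.61 (adjusted p 0.0195). Klf11, a transcription factor, fell by 0.56. Slc35e3, a membrane transporter family gene, rose by 0.32 ± 0.07 and exceeded its TCA level by 0.28 ± 0.07 (adjusted p 0.0119). Lta, the cytokine lymphotoxin alpha, rose by 0.36 ± 0.11, and its difference from TCA had an interval of 0.04 to 0.49 and an adjusted p of 0.203. Metap1d (a mitochondrial methionine aminopeptidase), Kmt2d (a histone methyltransferase), Ptpn14 (a tyrosine phosphatase) and Hdac10 (a deacetylase) rose by 0.40, 0.37, 0.35 and 0.32. In the TCDCA libraries the ribosomal RNA transcript Rn45s was also lower, at -0.65 ± 0.21 (adjusted p 0.042). It was picked after its values were seen, and its part in these changes was not tested. When the 6 libraries of the comparison were left out in turn, the TCDCA call was lost 5 times for Klf2, Ifi209, Lta, Kmt2d and Hdac10. It was lost 4 times for S1pr1, Metap1d and Rn45s and 2 times for Ptpn14, with the highest adjusted p 0.228. Against TCA, leaving out 1 library of that comparison ended the call 5 of 6 times for Ifi209, 4 times for Tmem71 and 3 times for Slc35e3. All 3 lost it without TCA replicate 1, and the adjusted p over the lost calls was up to 0.238. S1pr1 and Itgb3 passed without TCA replicate 3 (adjusted p 0.036 and 0.0101).

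TCA had no private gene, but 15 genes it changed were outside the shared set. Those given here were picked after their values were seen, for directions that differ between the acids. Lmna, which encodes the nuclear lamins A and C, stood at 7.43, 6.94 and 6.55 CPM in the controls, 5.71, 5.42 and 5.6 with UDCA, 11.3, 11.9 and 10.6 with TCDCA and 8.76, 9.2 and 8.16 with TCA. UDCA libraries were the lowest, the controls next, then TCA, and TCDCA the highest, with no overlap between neighbours. It fell by 0.32 ± 0.08 with UDCA, rose by 0.69 ± 0.07 with TCDCA and by 0.32 ± 0.07 with TCA (adjusted p 0.0449), and TCDCA exceeded TCA by 0.37 ± 0.07 (adjusted p 0.00206). Igfbp4, a binding protein of insulin-like growth factors, was at 89.6, 87 and 86.8 CPM in the controls, 53.5, 58.7 and 57.9 with UDCA, 97.5, 108 and 107 with TCDCA and 111, 108 and 111 with TCA. It fell by 0.63 ± 0.06 with UDCA and rose by 0.25 ± 0.06 with TCDCA and 0.32 ± 0.06 with TCA, and the 95% interval between the conjugates was -0.20 to 0.05. Hmgcs1 and Idi1 are described above. Without TCA replicate 3 the rises of Lmna and Igfbp4 with TCA were 0.37 and 0.32 and did not pass (adjusted p 0.0844 and 0.09), and Idi1 had 0.32 (adjusted p 0.0648). Of the signalling lymphocyte receptors, Slamf6 and Slamf7 fell with both conjugates, Slamf6 at -0.89 with TCDCA and -0.32 with TCA, and Slamf7 at -0.31 and -0.25. With UDCA they had -0.11 and 0.05 and did not pass (adjusted p 0.312 and 0.523), and without TCA replicate 3 neither fall with TCA passed (adjusted p 0.226 and 0.16). Each of these 5 genes also lost its TCA call without control replicate 2, control replicate 3 or TCA replicate 1.

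Known receptors and transporters of bile acids were sparse in these cells. Of 28 listed 14 were abundant enough to be tested, and Nr1h4 and Gpbar1 never exceeded 1 and 4 counts in a library. UDCA raised 4 of the 14 and lowered 3, TCDCA raised 1 and lowered 2, and TCA changed none, beside 9.18% of all genes raised and 10.7% lowered with UDCA and 5.08% and 8.04% with TCDCA. The 3 lowered with UDCA were 1 without control replicate 2, and with TCDCA none passed without control replicate 2 or TCDCA replicate 2. S1pr2, which binds conjugated bile acids, stood at 9.48, 9.6 and 9.03 CPM in the controls, 7.9, 7.96 and 7.1 with UDCA, 8.67, 7.17 and 7.94 with TCDCA and 9.92, 9.39 and 8.42 with TCA. It fell with UDCA at -0.29 ± 0.08 (adjusted p 0.0136) and with TCDCA at -0.24 ± 0.08 (adjusted p 0.0496). With TCA it had -0.02 ± 0.08 (adjusted p 0.966), and the interval between the conjugates was -0.39 to -0.05. That interval is not adjusted for the number of genes, and none of the 14 passed the direct test between TCDCA and TCA. The fall with UDCA did not pass without control replicate 2 or UDCA replicate 3, and that with TCDCA passed only without TCDCA replicate 1. Abcb1b, a drug efflux pump, rose by 0.37 with UDCA, and its reads can be shared with its close copy Abcb1a.

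UDCA could also be set beside LCA, lithocholic acid, which was given at the same 50 µM and lacks the carbon 7 hydroxyl. Between them 3504 genes differed (26.9%), 1934 higher (14.8%) and 1570 lower (12%) with UDCA. Of 33 type I interferon response genes 28 were lower with UDCA than with LCA and none higher (median -0.89), and of 32 integrated stress response genes 28 were lower and 2 higher (-0.50). Ifit1 was -1.95 ± 0.17 and Cxcl10 -2.67 ± 0.18 with UDCA relative to LCA (adjusted p 3.7e-09 and 1.15e-10). Lmna was -1.75 ± 0.07 (adjusted p 4.02e-15), having risen by 1.43 with LCA against control. Of the 42 shared genes 39 changed in the same direction with LCA against control, beside 36.5% of all tested genes changed in either direction. The 42 were chosen against the same control libraries, so the 39 are only a description. Between UDCA and LCA 23 of the 42 differed, with the smaller change under UDCA in 18 and the larger in 5. Hmgcs1 fell with both acids and the difference between them was 0.07 ± 0.06 (adjusted p 0.441).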

How the data were processed

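RNA-seq of 24 libraries in 8 groups of 3 was deposited as 1 table of estimated counts per gene, made by the authors with HOMER analyzeRepeats.pl over exons with 1 transcript kept per gene and no normalization, per the file header. STAR, HOMER, DESeq2 and the GRCm38 and mm10 builds are named in the submitters' processing notes, and versions and settings are not given in the sources used here. The counts come in steps of 0.5 (29.43% were not whole) and were rounded up to whole numbers. The plan had assumed whole counts.

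Groups were taken from the sample titles. Genes were filtered with filterByExpr, which left 13044 of 24537, normalized by TMM, and tested in 1 edgeR quasi-likelihood fit over all 24 libraries (R 4.3.3, edgeR 4.0.16, limma 3.58.1). P-values are two-sided and Benjamini-Hochberg adjusted over all tested genes, with a threshold of 0.05. Errors of log2 fold changes are standard errors from the F statistic, and intervals are 95%. CPM used library sizes scaled by TMM. The 12 libraries held 28713265 to 37269527.5 counts before that scaling, so counting error is small beside replicate spread for most genes named. The pipeline was tested on simulated data.

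The acids, members and lists were chosen with earlier results of these data known. Named genes are, at a mean of at least 10 CPM in 1 group, up to 10 shared rises and 10 shared falls by their smallest change. The same floor held for the 6 largest rises and falls private to an acid or between TCDCA and TCA without overlap of libraries. Also named, without that floor, are the 3 members of each list with the smallest adjusted p and a fixed set. Others are said to be picked after their values were seen. Upstream sequences come from RefSeq's GRCm38.p6 table, and genes without an entry were left out of the sequence counts. A few genes are included in counts and medians of their lists but are not reported here by name or plotted. Alternatives were RLE scaling, other filters, DESeq2 1.42.0, the 12 libraries alone, a replicate block, rounding down and leaving out each library.

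The labels do not say whether libraries with the same replicate number belong together, and the main fit did not pair them. Among control, UDCA, TCDCA and TCA, same-numbered libraries had correlations of their deviations from the group means between -0.159 and 0.147, over 0.1 in 2 of 18 pairs.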

Additional observations from a re-analysis of the deposited data

How the results depend on the processing

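For the genes selected by the naming rule, the shared genes and those picked later, no change that passed the test reversed direction under any alternative run. Over these genes, comparisons and settings, leaving out a library left the side of the threshold as it was in 3843 cases. The call was lost in 434 and gained in 43. With the other settings it was as before in 4875, lost in 47 and gained in 70. Cases that passed in neither fit are among those left as they were, so these counts do not measure how often a call held. Beside those named in the report, at least 1 left-out library ended further calls. Between TCDCA and TCA these were Cd244, Egln3, Ero1l, Scd2, Gclm, Txnrd1, Tnfsf11, Tnfrsf21 and Nr4a3. With UDCA they included Abcg1, Abca1, Mylip, Gzmb, Rab37, Mycn and Tnfrsf9, and with TCDCA Idi1, Egr3, Igfbp4, Scd2 and Cd160. Counts of TCA and of the shared genes depended most on the processing. With no filter on low counts TCA changed 123 genes, 97 were shared and 2 were private to TCA. With DESeq2 TCA changed 103 genes and 83 were shared. When 1 library at a time was left out, the count ran from 1692 to 2219 with UDCA (2599 with all libraries), 898 to 1628 with TCDCA (1712), 6 to 114 with TCA (57), 185 to 737 between TCDCA and TCA (471) and 2487 to 3338 between UDCA and LCA (3504). Shared genes ran from 4 to 97 (42), and genes private to UDCA from 594 to 1081 (979), to TCDCA from 146 to 452 (334) and to TCA from 0 to 1 (0). The cause was not tested, and each such fit had fewer libraries. RLE scaling, the 10 CPM filter, the smaller fits and rounding down stayed within 1.5 times each of these counts.

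The replicate block gave 64 shared genes, 84 TCA genes, 1 gene private to TCA, 2813 UDCA genes, 1920 TCDCA genes and 644 between TCDCA and TCA. By their deviations from the group means, 5 of 12 libraries were most like a library of their own number. Whether the numbers pair the libraries stays unknown.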

Other observations

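Genes of fatty acid synthesis fell with UDCA in 9 of 21 tested and rose in 2 (median log2 fold change -0.18), with 5 falls and 3 rises with TCDCA (-0.03) and none passing with TCA (0.05). Over all genes 10.7% fell and 9.18% rose with UDCA, and 8.04% and 5.08% with TCDCA. The 3 rises with TCDCA were 0 or 1 with any library left out, and the 5 falls were 2 without control replicate 2 and 3 without TCDCA replicate 1 or 2. Scd1, the desaturase that makes monounsaturated fatty acids, stood at 219, 249 and 238 CPM in the controls, 156, 129 and 146 with UDCA, 157, 162 and 200.3 with TCDCA and 245, 266 and 218 with TCA. UDCA and TCDCA libraries were all below the controls, and the third TCA library alone was just below them. Scd1 fell with UDCA (-0.71 ± 0.10) and TCDCA (-0.44 ± 0.10), and was -0.49 ± 0.10 with TCDCA relative to TCA (adjusted p 0.00424). Scd2, its paralog, was -0.18 between the conjugates (adjusted p 0.0389).

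Antioxidant genes moved both ways, with 5 rises and 6 falls of 20 with UDCA, 5 and 4 with TCDCA and none passing with TCA, to be read beside the same shares of all genes. Gclm, which makes glutathione, stood at 33.5, 33.1 and 35.2 CPM in the controls, 44.9, 46.4 and 46.5 with UDCA, 45.8, 45.9 and 39.4 with TCDCA and 37, 34.6 and 38.1 with TCA. It rose by 0.44 with UDCA and 0.36 with TCDCA, and TCDCA exceeded TCA by 0.26 ± 0.05 (adjusted p 0.00569). Txnrd1, thioredoxin reductase, was also higher with TCDCA than with TCA, by 0.21 ± 0.04 (adjusted p 0.00546). The metallothioneins Mt1 and Mt2, which bind zinc, fell with TCDCA (-0.29 and -0.33), and the direct test against TCA did not pass (adjusted p 0.0907 and 0.197). Among inhibitory receptors Cd160 rose by 0.86 with UDCA and 0.37 with TCDCA and had 0.25 with TCA (adjusted p 0.449), while Pdcd1 (PD-1) had 0.12 with UDCA, -0.02 with TCDCA and -0.05 with TCA and passed with none of them.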
